A study of Mus musculus with 6 samples.

Results

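The contactins and the contactin-associated proteins (Casprs) are neuronal cell adhesion molecules that pair with each other along axons. Contactins are immunoglobulin-like proteins held on the outer face of the membrane by a lipid anchor, and Casprs are relatives of the neurexins that cross the membrane. Cntn1 joins Cntnap1 (Caspr) at the paranodes that flank nodes of Ranvier, and Cntn2 joins Cntnap2 (Caspr2) at the neighbouring juxtaparanodes, where they hold voltage-gated potassium channels. Cntn3 to Cntn6 are known mainly from axon guidance and synapse formation and bind the receptor phosphatase Ptprg, and variants in several of these genes have been studied in neurodevelopmental disorders.

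The 10 genes described are Cntn1 to Cntn6, Cntnap1, Cntnap2, Cntnap4 and Cntnap5a, out of 19969 genes tested and 55401 in the count files. They were named as a family, but Cntn4 stood among the genes singled out for this same contrast, and the list was drawn up with results of these 6 samples in view. The differences between the groups below are therefore given as a description, selected on the contrast that they describe, with no test. All 10 passed the filter on low counts. The 3 other family genes annotated in the mouse, Cntnap3, Cntnap5b and Cntnap5c, are given beside them.

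The samples were dorsal hippocampus of 6 wild-type (WT) mice, 4 months old, the euploid littermates of Ts65Dn mice. Each received 50 μg of an antisense oligonucleotide per hemisphere into the dorsal dentate gyrus, and tissue was taken 3 days later. The 3 Snhg11-ASO mice received a gapmer against exonic sequence of the long non-coding RNA Snhg11, which directs RNase H to it, and the 3 Control-ASO mice received the same bases in scrambled order. With 1 oligonucleotide against Snhg11 and no uninjected group, effects of the target and of the oligonucleotide cannot be told apart. The tissue was dissected whole, so fewer cells of a type and less RNA per cell cannot be told apart either.

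Gene counts came to 2.90e+07, 3.43e+07 and 3.31e+07 read pairs in the Control-ASO samples. In the Snhg11-ASO samples they came to 3.86e+07, 4.19e+07 and 4.40e+07, so depth did not overlap between the groups. Snhg11, the targeted RNA, was at 551, 436 and 209 CPM (counts scaled to a library total of 1e+06) under Control-ASO and at 139, 65.4 and 69.4 CPM under Snhg11-ASO, so the groups did not overlap. All 6 markers of dentate granule cells and all 6 of CA pyramidal cells were detected, and their summed CPM overlapped between the groups. The summed CPM of 8 interneuron markers did not overlap, at 556 to 627 in Control-ASO and 440 to 504 in Snhg11-ASO. Myelin and oligodendrocyte markers (10 genes) overlapped, at 1768 to 3237 against 1781 to 4014 CPM. Choroid plexus markers (6 genes) were scattered in both groups, from 36.2 to 1890 CPM in Control-ASO and from 67.8 to 1294 CPM in Snhg11-ASO. Snhg11-ASO replicate 1 stood apart in several lists, with 72.1 CPM over 4 oligodendrocyte precursor markers against 130 to 164 in the other 5 samples. Where it changed a value much, the value without it is given too. The 6 pan-neuronal markers all had log2 fold changes below 0 (median -0.20) and overlapping summed CPM, at 3929 to 4293 against 3330 to 4031. The 4 oligodendrocyte precursor markers were also all below 0 (median -0.35). The part of these lists in the values below was not tested.

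Most of these genes are very long, and some have several annotated starts. Cntn4 covered chr6:105677660-106699310 on the plus strand of GRCm38 in GENCODE M21, a span of 1022 kb, of which merged exons filled 0.831%. Its annotated protein-coding transcripts ran from 500 to 1022 kb, with starts and ends that differ between them. RefSeq promoter windows, which take in 250 bases before and 50 after a start, were found for 7 of the 10 genes, and those of Cntn4 lay 441 kb inside the GENCODE gene. One such window is shown for Cntn4 (chr6:106118692-106118991, plus strand), one for its longer paralogue Cntn5 (chr9:10904726-10905025, minus strand) and one for the most abundant contactin, Cntn1 (chr15:92050915-92051214, plus strand). Sequences are from RefSeq on GRCm38.p6, 5′ to 3′, and capitals mark CCAAT or GGGCGG on either strand, so also ATTGG or CCGCCC.
Cntn4: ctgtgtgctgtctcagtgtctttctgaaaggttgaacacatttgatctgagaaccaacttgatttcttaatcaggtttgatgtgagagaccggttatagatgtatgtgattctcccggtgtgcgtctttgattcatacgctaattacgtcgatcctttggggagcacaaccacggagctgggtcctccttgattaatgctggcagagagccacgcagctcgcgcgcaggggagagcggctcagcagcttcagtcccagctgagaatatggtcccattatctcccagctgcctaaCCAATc
Cntn5: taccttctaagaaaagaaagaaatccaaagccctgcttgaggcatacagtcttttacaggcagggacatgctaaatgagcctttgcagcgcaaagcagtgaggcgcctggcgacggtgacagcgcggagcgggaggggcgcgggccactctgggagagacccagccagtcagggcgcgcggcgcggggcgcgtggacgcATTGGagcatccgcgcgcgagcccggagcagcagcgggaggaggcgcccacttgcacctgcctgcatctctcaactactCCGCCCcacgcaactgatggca
Cntn1: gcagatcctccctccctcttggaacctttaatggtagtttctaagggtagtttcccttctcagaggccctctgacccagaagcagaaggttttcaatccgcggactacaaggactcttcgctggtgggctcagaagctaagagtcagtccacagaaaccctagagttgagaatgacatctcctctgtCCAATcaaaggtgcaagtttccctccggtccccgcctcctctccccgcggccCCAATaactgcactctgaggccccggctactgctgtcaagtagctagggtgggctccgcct
The Cntn4 window held 12 CpG dinucleotides, Cntn5 26 and Cntn1 9, against a median of 7 over the 32851 promoter windows of RefSeq. CCAAT occurred in each of the windows shown and in 37.4% of all windows. GGGCGG occurred in the Cntn5 window and in 35.7% of all windows. TATAAA, found in 13.6% of all windows, was not among the letters of these. The matches describe sequence and were not related to any change.

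Levels between genes were compared as CPM per kb of merged exons, a scale on which exon length is taken into account and which the choice of the genes did not use. Cntn1 was the most abundant gene of the family in the Control-ASO samples, at 55.5 ± 3.05 CPM per kb (SD, n = 3), and made up 36.8% to 41.4% of the summed family level. Cntnap1 followed at 20.8 ± 1.85, Cntnap2 at 13.3 ± 1.94 and Cntn2 at 10.3 ± 1.42. The members of both axonal pairs thus held the upper places among the members, whereas Cntn4, at 4.20 ± 0.268, held the tenth of 13 family genes.

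Cntnap4 (5.94 ± 1.33), Cntnap5a (5.88 ± 0.422), Cntn3 (4.48 ± 0.586), Cntn4 and Cntn5 (3.69 ± 1.17) were close together in the Control-ASO samples. Cntn6 was at 1.39 ± 0.452 CPM per kb, the lowest of the members. Ordered by the mean of the 6 samples, the neighbours Cntn1 and Cntnap1, Cntnap1 and Cntnap2, and Cntn5 and Cntn6 had ranges that did not overlap over those samples. All other neighbours overlapped on these ranges, which take in both groups, and are not told apart by them. In the Control-ASO samples alone, Cntnap5a (5.45 to 6.30) lay above Cntn3 (3.85 to 5.01) and Cntn4 (3.94 to 4.47). In the Snhg11-ASO samples Cntnap4 stood at 2.76 ± 0.406 and Cntn4 at 1.51 ± 0.30 CPM per kb, so that Cntnap4 moved from the seventh to the ninth place of the family and Cntn4 from the tenth to the eleventh.

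**Figure D1:**
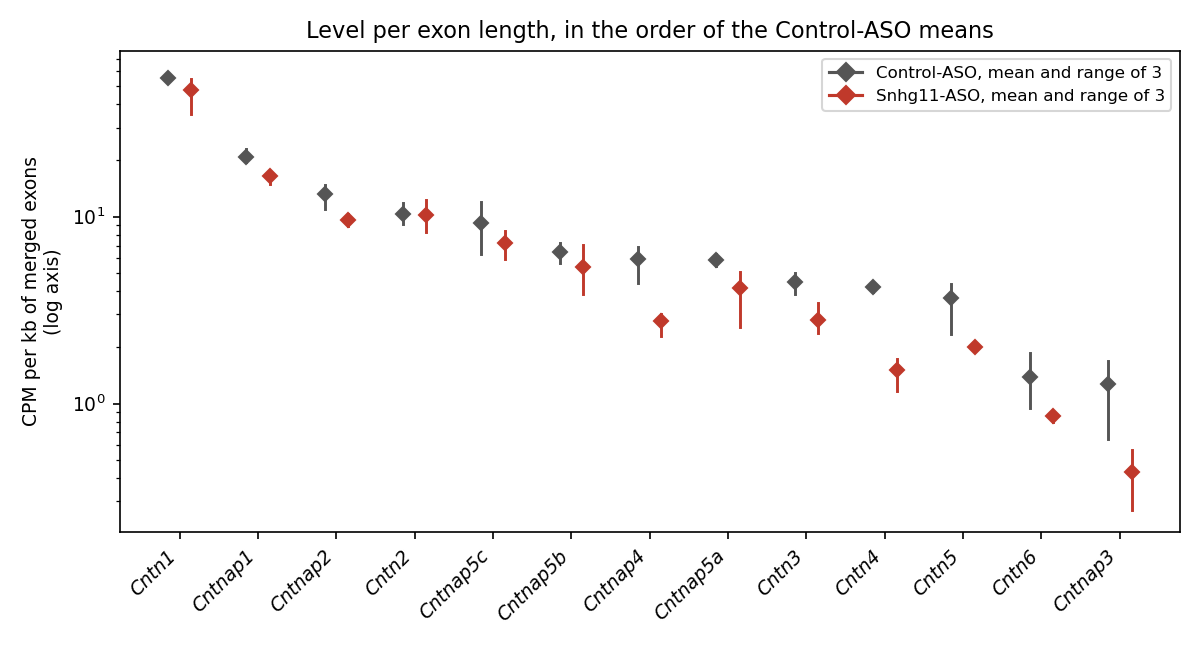
Level of the 13 family genes in CPM per kb of merged exons on a log axis, with the mean (diamond) and the range (line) of the 3 samples of each group. Cntn1 lies above all others in both groups, and Cntn4 and Cntnap4 show a clear gap between the ranges of Control-ASO and Snhg11-ASO.

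Cntn4 had the largest difference among the 10 genes. This contactin, also called BIG-2, is known from the wiring of olfactory and visual axons. Its level was 33.4, 38.0 and 35.6 CPM under Control-ASO and 9.91, 13.9 and 14.7 CPM under Snhg11-ASO. The highest Snhg11-ASO sample lay far below the lowest Control-ASO sample, and the means were 35.6 ± 2.27 and 12.8 ± 2.54 CPM (SD, n = 3 each), the second being 36.0% of the first. The log2 fold change, on the TMM-scaled count scale of edgeR, was -1.47 (standard error 0.17). Without Snhg11-ASO replicate 1, the lowest sample, it was -1.32. Of the 14454 genes with an average log2 CPM of at least 1, 23 had a log2 fold change at or below that of Cntn4, itself included.

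The other contactins of the guidance group were also lower, by less. Cntn3 (BIG-1) was at 30.8, 25.9 and 33.7 CPM in Control-ASO and at 23.3, 17.2 and 16.0 CPM in Snhg11-ASO, a log2 fold change of -0.68 (standard error 0.18). Without Snhg11-ASO replicate 1, the highest of that group, the value for Cntn3 was -0.86. Cntn5 (NB-2), known from the auditory pathway, was at 19.8, 10.6 and 19.7 CPM against 9.28, 9.21 and 8.82 CPM, with -0.88 (0.25). Cntn6 (NB-3), known from cerebellar and hippocampal synapses, was at 8.84, 6.18 and 12.1 CPM against 5.72, 5.17 and 5.75 CPM, with -0.70 (0.25). The groups did not overlap for any of these, but the gaps were narrow for Cntn5 and Cntn6, where Control-ASO replicate 2 lay close to the Snhg11-ASO samples. The spread among the Control-ASO samples was 31.6% of the mean for Cntn5 and 32.6% for Cntn6, against 6.38% for Cntn4. Without Control-ASO replicate 3, the highest sample, the value for Cntn6 was -0.44.

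The paranodal and juxtaparanodal contactins had the smallest differences of the 10 genes. Cntn1 was at 506, 507 and 557 CPM in Control-ASO and at 336, 499 and 512 CPM in Snhg11-ASO, a log2 fold change of -0.22 (standard error 0.17). The groups overlapped, and without Snhg11-ASO replicate 1, the only sample far below the rest, the value was -0.050. Cntn2 (TAG-1) was at 92.6, 111 and 85.1 CPM against 77.2, 114 and 94.4 CPM, with -0.015 (0.17). Its groups lay over each other.

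Among the Casprs, Cntnap4 had the largest difference. Cntnap4 is known from interneurons, where it takes part in the release of GABA. It was at 43.2, 27.8 and 41.0 CPM in Control-ASO and at 14.4, 18.7 and 18.9 CPM in Snhg11-ASO, a mean of 46.4% of control and a log2 fold change of -1.11 (standard error 0.20). The groups did not overlap, with Control-ASO replicate 2 the lowest of its group, and the value without that sample was -1.28. Without Snhg11-ASO replicate 1 it was -0.99. The interneuron markers moved the same way: 8 of 8 had log2 fold changes below 0, with a median of -0.28. Their part in the Cntnap4 value was not tested.

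Cntnap2 was at 151, 144 and 113 CPM in Control-ASO and at 106, 97.3 and 91.1 CPM in Snhg11-ASO, a log2 fold change of -0.47 (standard error 0.13). Cntnap1 was at 135, 115 and 116 CPM against 100.2, 103 and 87.9 CPM, with -0.33 (0.10). Both genes were lower in every Snhg11-ASO sample than in any Control-ASO sample, by small margins. Of the marker lists, 10 of 10 myelin genes had log2 fold changes above 0, and 6 of 6 pan-neuronal and 4 of 4 oligodendrocyte precursor genes had values below 0, all with overlapping sums. Cntnap5a, a Caspr of less known function, was at 64.4, 59.7 and 68.9 CPM against 28.1, 55.1 and 52.98 CPM, with -0.50 (0.25). Its groups did not overlap, but Snhg11-ASO replicate 1 set much of the difference, and without it the value was -0.25.

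**Figure D2:**
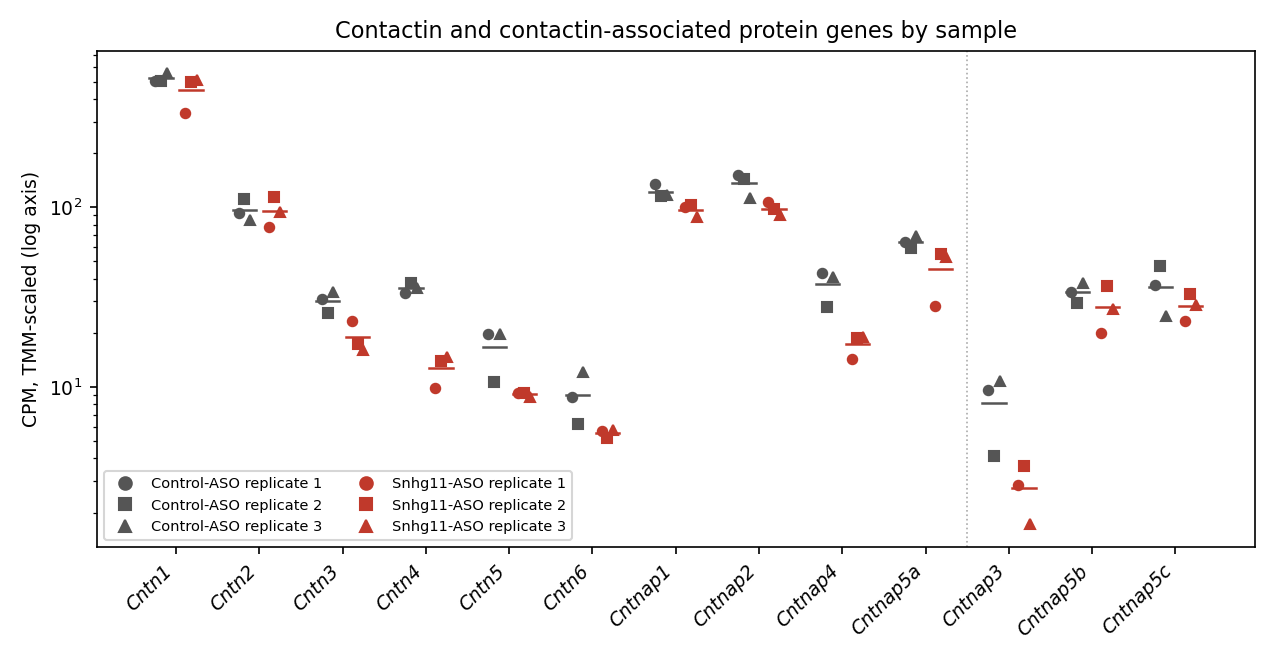
CPM of each of the 6 samples on a log axis, with replicates as symbols, groups as colours and group means as bars; the 10 genes described stand left of the dotted line and 3 other family genes right of it. Cntn4 and Cntnap4 show the widest gaps among the 10, and Cntn1 and Cntn2 overlap between the groups.

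The log2 fold change was below 0 for 10 of 10 genes, against 48.3% of all genes tested, with a median of -0.59 against 0.0097. In 8 of 10 every Snhg11-ASO sample lay below every Control-ASO sample, as in 7.7% of all genes. That share rose with genomic span. It was 4.97% for genes of 10 to 50 kb, 22.1% for 200 to 500 kb, 43.4% for 500 to 1000 kb and 73.7% over 1000 kb. Of the 10 genes, 8 span over 200 kb and 2 under 50 kb. By edgeR's quasi-likelihood test 0 of the 19969 genes were called at the adjusted threshold of 0.05 (0%), while 1619 (8.11%) had an unadjusted p below it and DESeq2 called 251 genes (1.35%). In the lower direction an unadjusted p under 0.05 was found for 7 of the 10 genes and 4.43% of all genes, and DESeq2 called 2 of the 10, Cntn4 and Cntnap4, and 0.802% of all genes. Since the list was drawn up on this contrast, nothing is read from these counts.

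The 3 other family genes lay on the same side of 0. Cntnap3 was at 9.65, 4.10 and 10.7 CPM in Control-ASO and at 2.86, 3.61 and 1.72 CPM in Snhg11-ASO, a log2 fold change of -1.58 (standard error 0.43) at the lowest level of the family. Its groups did not overlap, but Control-ASO replicate 2 was close to the Snhg11-ASO samples. DESeq2 called Cntnap3, as it did 1.35% of all genes, and edgeR did not. Cntnap5b (-0.27, standard error 0.22) and Cntnap5c (-0.35, standard error 0.24) overlapped between the groups. Without Snhg11-ASO replicate 1 their values were -0.086 and -0.23. Cntnap5a, Cntnap5b and Cntnap5c are close relatives, and read pairs that map to more than 1 place were not counted.

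Genomic span, which takes in exons and introns, differed widely among the members. It is 20.2 kb for Cntnap1 and 33.8 kb for Cntn2, from 291 to 410 kb for Cntn1, Cntnap4, Cntn6 and Cntn3, 903 kb for Cntnap5a, 1022 kb for Cntn4, 1244 kb for Cntn5 and 2245 kb for Cntnap2. Over all genes with a span, the median log2 fold change was 0.0092 for 3796 genes of 50 to 200 kb, -0.13 for 763 genes of 200 to 500 kb, -0.33 for 166 genes of 500 to 1000 kb and -0.48 for 57 genes over 1000 kb. Of those 57 genes, 94.7% had values below 0, so that a value below 0 is the usual one for a gene of the length of Cntn4.

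Against genes of like span the members parted. Of the 57 genes over 1000 kb, 1 had a lower log2 fold change than Cntn4 (Il1rapl2, -1.62), 10 had a lower one than Cntn5, and 30 had a lower one than Cntnap2, the longest of the family. Of the 763 genes of 200 to 500 kb, 7 lay below Cntnap4, 32 below Cntn6, 40 below Cntn3 and 273 below Cntn1. Cntnap5a had 42 of 166 genes below it. Of the 7542 genes of 10 to 50 kb, 651 lay below Cntnap1 and 3013 below Cntn2, the short genes among the 10. Outside the 10 genes, Cntnap3 had 6 of 3796 genes of 50 to 200 kb below it, a smaller share than for any of the 10, Cntnap5b had 92 of 166 and Cntnap5c 77 of 166. Cntn4, Cntnap4 and Cntnap3 lay near the lower end for their span, with 1.75%, 0.917% and 0.158% of genes below them. Cntn6 (4.19%) and Cntn3 (5.24%) came next, and Cntn1 and Cntnap2 did not lie near that end. Cntn4 was singled out on this same contrast, so its low place is a description and was not tested.

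**Figure D3:**
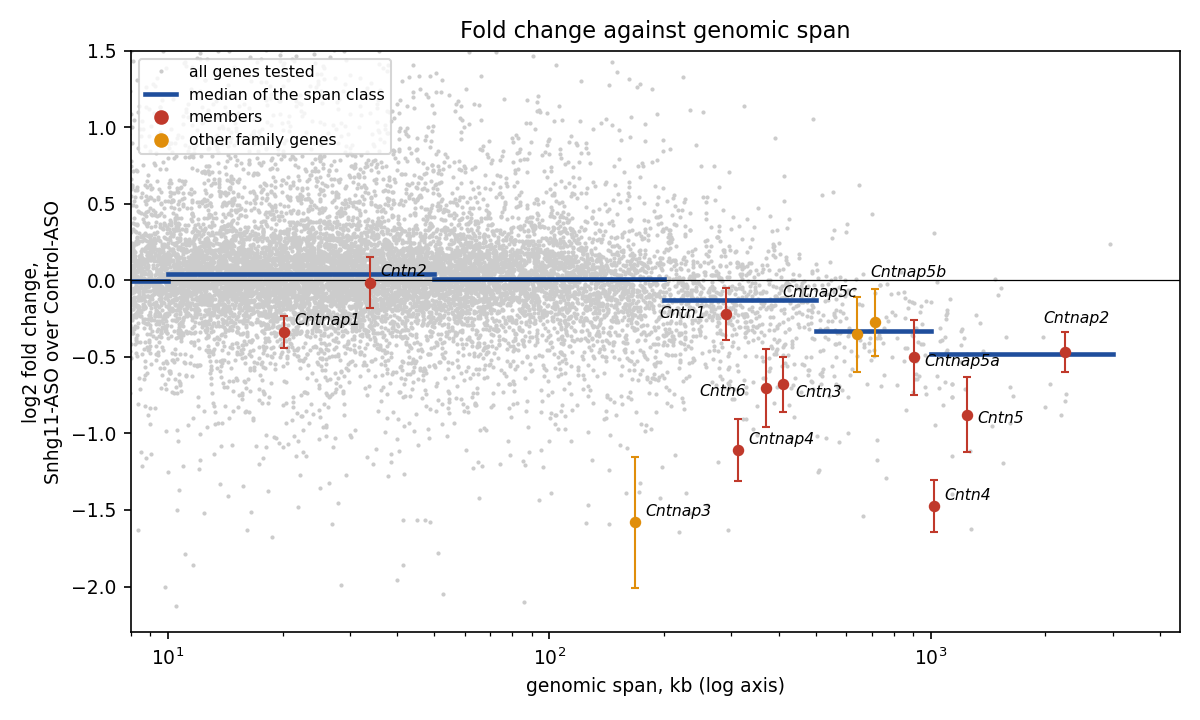
Log2 fold change (Snhg11-ASO over Control-ASO) against genomic span in kb on a log axis, with all genes tested in grey, medians of the span classes as blue lines, and the family genes with standard errors; genes beyond the axes are not drawn. The medians go down beyond 200 kb, Cntnap2 sits on the line of its class, and Cntn4 and Cntnap4 sit well below theirs.

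When the trend with span was removed from each sample by offsets, the log2 fold change of Cntn4 became -1.10 (standard error 0.18) and that of Cntnap4 -0.93 (0.19). Cntn5 went from -0.88 to -0.45, Cntn3 from -0.68 to -0.47, Cntn6 from -0.70 to -0.50 and Cntnap5a from -0.50 to -0.15. Cntnap2 went from -0.47 to 0.075 (standard error 0.13) and changed sign, by less than its standard error from 0. Cntn1 went from -0.22 to -0.064. Cntnap1 (-0.33 to -0.39) and Cntn2 (-0.015 to -0.062) moved slightly further from 0. Cntnap3, outside the 10 genes, stayed the lowest of the family at -1.51 (0.40). With the offsets 9 of 10 genes had values below 0, with a median of -0.42, and 0 were called by edgeR, with DESeq2 not run on the offsets.

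**Figure D4:**
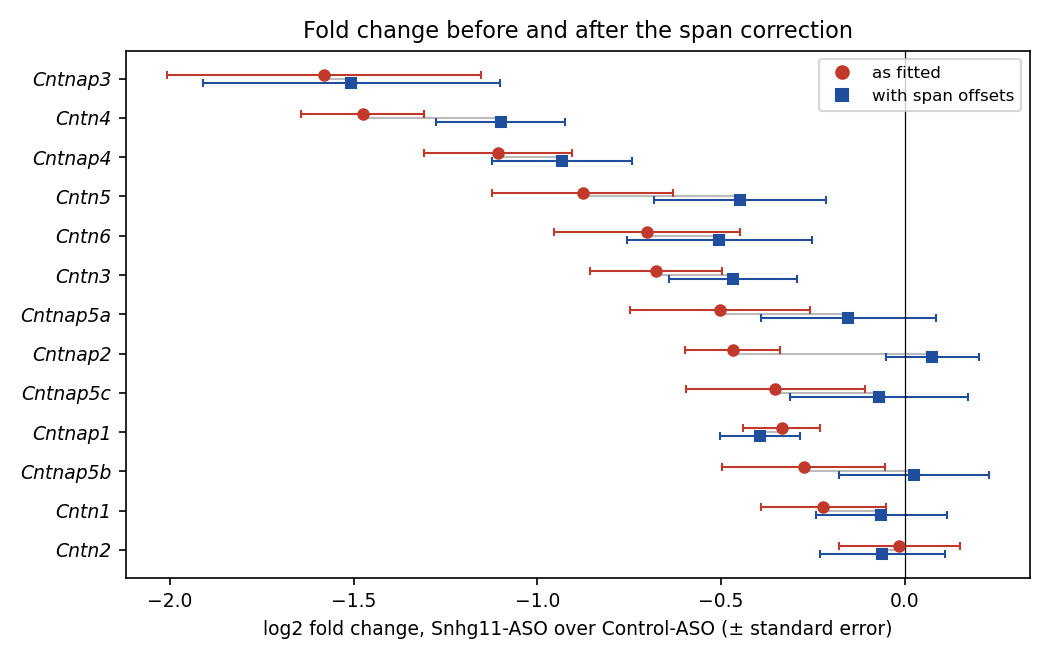
Log2 fold change of the 13 family genes with standard errors, as fitted (circles) and with the span offsets (squares). Cntn4 goes from -1.47 to -1.10 and Cntnap2 from -0.47 to 0.075, so the offsets widen the distance between these very long genes.

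The interior of Cntnap2 also held features with counts of their own: 22 short genes of the type TEC, a GENCODE class for transcripts that still await experimental evidence, are annotated inside it on its strand, with no base shared with its exons. The library kit keeps RNA without a poly(A) tail, and reads of such genes and of unspliced Cntnap2 RNA cannot be told apart. The nested gene with the most counts, Gm43879 (21.4 kb from the start of Cntnap2), was at 15.8, 13.0 and 13.0 CPM in Control-ASO and at 9.31, 17.5 and 18.1 CPM in Snhg11-ASO, with overlapping groups and a log2 fold change of 0.10 (standard error 0.26), or 0.35 without Snhg11-ASO replicate 1. Gm43875, 1427 kb from the start and chosen after its values were seen, was at 3.81, 3.95 and 2.82 CPM against 2.33, 2.44 and 2.43 CPM, with -0.55 (0.22) and no overlap.

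Along the gene the log2 fold change was 0.22 (standard error 0.28) at the first nested gene, 14.2 kb from the start. It was -0.94 (0.43) at 843 kb and -0.66 (0.25) at the last, 1727 kb from the start. The gene at 843 kb had 88 counts over the 6 samples (0.206 to 0.713 CPM), and its groups overlapped. Spearman's rho of the log2 fold change with distance was -0.76 across the 22 genes, which lie in 1 host gene, share all libraries and are no replicates. The median was -0.11 for the 6 genes in the first 200 kb and -0.49 for the 16 beyond. Without Snhg11-ASO replicate 1, these medians were 0.16 and -0.36, so that of the near genes changed sign, and rho was -0.88. The summed CPM of the 16 far genes was 84.9%, 88.2% and 71.5% of that of the 6 near genes under Control-ASO, and 61.0%, 62.8% and 56.7% under Snhg11-ASO. These ratios did not overlap between the groups. The division at 200 kb was an alternative to the main one at 500 kb, and both distances were set after the values were seen. Divided at 500 kb, the ratios were 19.8%, 20.5% and 17.8% against 19.4%, 14.6% and 12.1%, and they overlapped through Snhg11-ASO replicate 1. That sample had the lowest sum over the 22 genes, at 59.9 CPM against 100.6 to 130 CPM in the other 5.

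**Figure D5:**
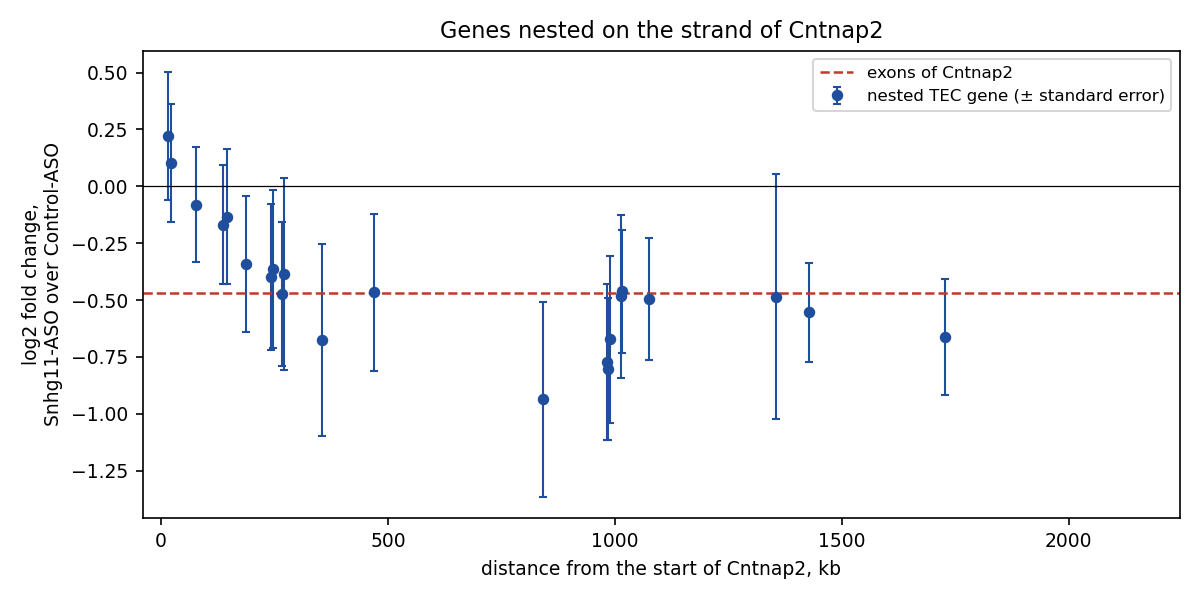
Log2 fold change with standard error of the 22 nested TEC genes against their distance in kb from the start of Cntnap2, with the value of the Cntnap2 exons (-0.47) as a dashed line. Values start above 0 near the start and lie between -0.94 and -0.46 beyond 500 kb. The lowest value rests on 88 counts over the 6 samples.

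Inside Cntn3 the nested TEC gene Gm44189 was at 1.53, 1.01 and 1.60 CPM in Control-ASO and at 1.86, 0.837 and 0.595 CPM in Snhg11-ASO, and the groups overlapped. Inside Cntnap5b, Gm37877 was at 2.07, 2.44 and 3.12 CPM against 0.656, 3.49 and 2.77 CPM, also overlapping. No gene is annotated inside Cntn4 in GENCODE M21, so its interior was not described this way.

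The genes whose profile over the 6 samples was most like that of Cntn4 were sought among 14453 genes by the root mean square difference in log2 CPM, each gene centred on its own mean. The 5 closest were Gm42768 (0.132), Gm42767 (0.158), Gm43046 (0.189), Gm42771 (0.208) and Gm43341 (0.208). All 5 are TEC genes on the strand of 1 host, Kcnip4, a potassium channel-interacting protein gene of 1135 kb with a log2 fold change of -1.14 (standard error 0.16). Cntnap4 was the closest family gene, at 0.324 and rank 32, and Cntnap5a was next, at 0.496 and rank 242. Since the 6 samples form 2 groups, a likeness of this kind includes the size of the group difference.

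The known binding partners lay on both sides of 0. Of 14 ligands and receptors of contactins, 9 had log2 fold changes below 0 (48.3% of all genes did) and 5 above, with a median of -0.055 against 0.0097 for all genes. edgeR called 0 of them at the adjusted threshold (0% of all genes), 4 passed it unadjusted (8.11% of all genes), and DESeq2 called 1, Ncam1 (1.35% of all genes). Ncam1, the neural cell adhesion molecule, was at 297, 246 and 224 CPM in Control-ASO and at 159, 168 and 152 CPM in Snhg11-ASO, with -0.68 (standard error 0.12) and no overlap. L1cam, an adhesion molecule that contactins bind in the same membrane, was at 92.6, 71.0 and 84.6 CPM against 38.9, 62.5 and 60.9 CPM, with -0.61 (0.20), and -0.42 without Snhg11-ASO replicate 1.

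The highest values of that list rested on Snhg11-ASO replicate 1. Tnc (tenascin-C, a matrix ligand) was at 97.6 CPM in that sample and at 10.3 to 22.2 CPM in the other 5, with overlapping groups and a log2 fold change of 1.52 (standard error 0.65), or 0.39 without that sample. Notch1, a receptor for which contactins have been described as ligands, was at 45.3, 45.6 and 31.6 CPM in Control-ASO and at 92.6, 49.1 and 48.7 CPM in Snhg11-ASO. Its Snhg11-ASO samples all lay above its Control-ASO samples, with a log2 fold change of 0.64 (0.28), or 0.26 without replicate 1. Ptprg, the phosphatase bound by Cntn3 to Cntn6, was at 141, 113 and 116 CPM against 93.2, 108 and 92.1 CPM, with -0.33 (standard error 0.12) as fitted and -0.028 with the span offsets. With the offsets Ncam1 was at -0.52, L1cam at -0.64, Notch1 at 0.61 and Tnc at 1.51. The median of the list was then 0.036.

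Of 14 partners in axonal domains (ankyrins, spectrins, potassium channels and their scaffolds), 10 had log2 fold changes below 0 (48.3% of all genes did) and 4 above, with a median of -0.099. By edgeR and DESeq2 0 of them were called, and 2 passed edgeR's threshold unadjusted (8.11% of all genes). Dlg2, the scaffold PSD-93, had the lowest value, at 396, 389 and 378 CPM in Control-ASO against 293, 339 and 269 CPM in Snhg11-ASO, with -0.37 (standard error 0.11). Dlg2 spans 1973 kb, and with the span offsets its value was 0.14. Epb41l3, which links Casprs to the cytoskeleton, had -0.32 (0.16), or -0.17 without Snhg11-ASO replicate 1, and its groups overlapped. The highest were Nfasc, the neurofascin that meets Cntn1 and Cntnap1 at the paranode, with 0.11 (0.20), and Dlg4 (PSD-95), with 0.095 (0.11), both with overlapping groups. The value for Nfasc rested on Snhg11-ASO replicate 1 (284 CPM against 165 to 216 in the other 5) and was -0.13 without it. With the span offsets Epb41l3 was at -0.21, Dlg4 at 0.044 and Nfasc at 0.18, and the median of the list was 0.00082.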

How the data were processed

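Total RNA of the dorsal hippocampus of 6 mice was sequenced as stranded, rRNA-depleted libraries. The authors aligned the reads with STAR 2.5.2a to mm10, and the deposited files hold raw STAR counts of read pairs per gene, not normalized and not pooled; Rsubread, which the methods name for quantification, does not write such files. Counts of the reverse strand were used, which held 96.2% to 96.8% of strand-assigned pairs. The summary lines that name no gene held 43.5% to 51.4% of pairs and were left out. Mitochondrial genes took 23.7% to 28.2% of gene counts. Symbols and spans came from GENCODE M21, which matched 55141 of 55401 identifiers.

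Genes were filtered with filterByExpr (minimum count 10), scaled with TMM and compared with edgeR's quasi-likelihood test (edgeR 4.0.16, R 4.3.3) with Benjamini-Hochberg adjustment at 0.05. CPM are TMM-scaled. Standard errors are the absolute log2 fold change over the root of its F statistic. All 3 Snhg11-ASO samples were kept, although the study left out 1 that it does not name. DESeq2 1.42.0, other scalings and filters, both strands together, span offsets (loess of log2 CPM on log10 span) and leaving out each sample were alternatives. Unless a replicate block is named, the values printed come from the fit without one. Samples of the 2 groups with the same number in the labels deviated together from their group means (correlations 0.297, 0.179 and 0.104 for numbers 1 to 3), so the fit with the number as a block was an alternative. Whether replicates are separate animals is given only by the study's methods, so p-values cover the spread between these samples.

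The members, partner lists and markers were chosen with earlier results of these data known. All family genes were named, with the 2 lowest and 2 highest of each partner list, the nested gene with the most counts in each host, and the 5 genes most like Cntn4; Ptprg, Gm43875 and Il1rapl2 were added after their values were seen. Ddx3y was at 62.5 to 94.7 CPM and Xist at 0.184 CPM or less in every sample.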

Additional observations from a re-analysis of the deposited data

How the results depend on the processing

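Directions and calls held for most results, and those that did not were as follows. DESeq2 called 2 of the 10 genes and 251 of all genes, where edgeR called 0. Of the 3 other family genes DESeq2 called 1, Cntnap3 (adjusted p = 0.0195). Cntnap3 was called in 3 of 18 alternatives. Without Snhg11-ASO replicate 1 edgeR called 1 of the 10 (Cntn4, log2 fold change -1.32, adjusted p = 0.0493) and 2 of all genes. DESeq2 without Snhg11-ASO replicate 1, 2 or 3 called 4, 2 and 2 of the 10 and 346, 268 and 216 of all genes; the 4 were Cntn3, Cntn4, Cntnap2 and Cntnap4. Cntn4 was called in 5 of 18 alternatives. These were edgeR without Snhg11-ASO replicate 1, DESeq2 (-1.48), and DESeq2 without Snhg11-ASO replicate 1, 2 or 3 (-1.32, -1.54 and -1.59). The other edgeR fits without 1 sample did not call it, and their values ran down to -1.58. In the main fit the adjusted p of Cntn4 was 0.237, and both of its edgeR adjusted p-values are from the quasi-likelihood test. Cntn2, at -0.16 without Snhg11-ASO replicate 2, turned to 0.099 without Control-ASO replicate 2, to 0.12 without Snhg11-ASO replicate 1 and to 0.11 in DESeq2 without the latter. With the span offsets Cntnap2 turned to 0.075 and Cntnap5b to 0.025, and Cntnap2 was at 0.076 with the replicate block added. Each of these values was smaller than its standard error (0.13, 0.20 and 0.12). The replicate block alone called 0 genes, left 10 of 10 values below 0 with a median of -0.61, and changed no call. Leaving out 1 sample gave 8 to 9 of the 10 genes with groups that did not overlap, against 11.2% to 13.8% of all genes. The difference in the far-to-near ratio of the genes nested in Cntnap2 was -4.004 percentage points divided at 500 kb. At that distance it was between -6.04 and -2.35 with 1 sample left out. Divided at 200 kb it was -21.3, and this value was not recomputed with samples left out. These alternatives were chosen after seeing the data, as were the next. Without Snhg11-ASO replicate 1, Nfasc turned to -0.13 and the median of the 6 nested genes in the first 200 kb of Cntnap2 to 0.16. By the longest transcript Cntn2 passed Cntnap2 in level. Why these values change was not tested. Each group held 3 samples, and the common biological coefficient of variation was 0.266.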
